A study of Drosophila melanogaster with 25 samples.

Results

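Larval eye-brain complexes of Drosophila melanogaster, the brain with its attached eye discs, were compared between loss and gain of Fat. The comparison used the 11 eye-brain libraries among the 25 libraries of the series, taken by their tissue and genotype labels. Loss was represented by larvae with the allele pair ft fd5-5/ft X13, called ft null here (3 libraries), against w1118 wild type in the same count table (3 libraries). Gain was represented by larvae of a stock with ubi-Gal4 and UAS-FtICD-3xFLAG, called FtICD here, in which a ubiquitously active driver expresses a tagged intracellular domain of Fat (3 libraries), against w1118 wild type in its own table (2 libraries). All larvae were kept at 25 C. The ft null table came from a NovaSeq X Plus and the FtICD table from a NovaSeq 6000, so table and sequencer cannot be told apart. Each genotype was therefore compared with the wild type of its own table. The quantity of interest was the effect of loss minus the effect of gain. Both genotypes act in the whole animal, FtICD is a part of the protein and not all of it, and larvae with the driver or the transgene alone were not analysed here.

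Fat is a giant atypical cadherin. It binds the cadherin Dachsous on neighbouring cells, with a strength tuned by the Golgi kinase Four-jointed, and restrains the atypical myosin Dachs. Through Dachs it acts on the kinase Warts of the Hippo pathway, which keeps the coactivator Yorkie out of the nucleus, and it also orients planar cell polarity. Without Fat, imaginal discs overgrow, and in the larval optic lobe the conversion of neuroepithelium into neuroblasts is delayed.

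Total counts were 16458028 to 21001535 in ft null libraries, 15016561 to 16266881 in their wild type, 31382563 to 41037756 in FtICD libraries, and 32970570 and 30361047 in the wild type of that table. Ribosomal RNA took 4.40 to 10.0% of counts in FtICD libraries and 11.4 and 15.1% in their wild type, against at most 1.44% in the ft null table. FtICD replicate 3 stood apart. Its fat body markers summed to 6466 counts per 1000000 (CPM), against 10.4 to 340 CPM in the other 10 libraries, and its salivary gland markers to 11940 CPM, against 3.26 to 55.4 CPM. The chaperone gene Hsc70-4 had 89.9, 57.2 and 3819 CPM in FtICD libraries, against 94.0 and 49.2 CPM in their wild type. In the ft null table it had 12222, 11382 and 11700 CPM in ft null libraries, against 7478, 6989 and 7071 CPM in their wild type. For Hsc70-4, replicate 3 was thus the library of the FtICD table nearest to the ft null table. FtICD replicate 2 was low for a set of genes such as UQCR-C2, and FtICD replicate 1 held 0.184 CPM of the dosage compensation RNA roX2, against 26.8 to 75.1 CPM in the other libraries. The biological coefficient of variation was 11.9% for loss and 33.7% for gain, or 17.6% for gain without FtICD replicate 3. The gain effects are thus measured less precisely, with a median standard error (SE) of 0.166 on the log2 scale, against 0.0947 for loss.

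**Figure D1:**
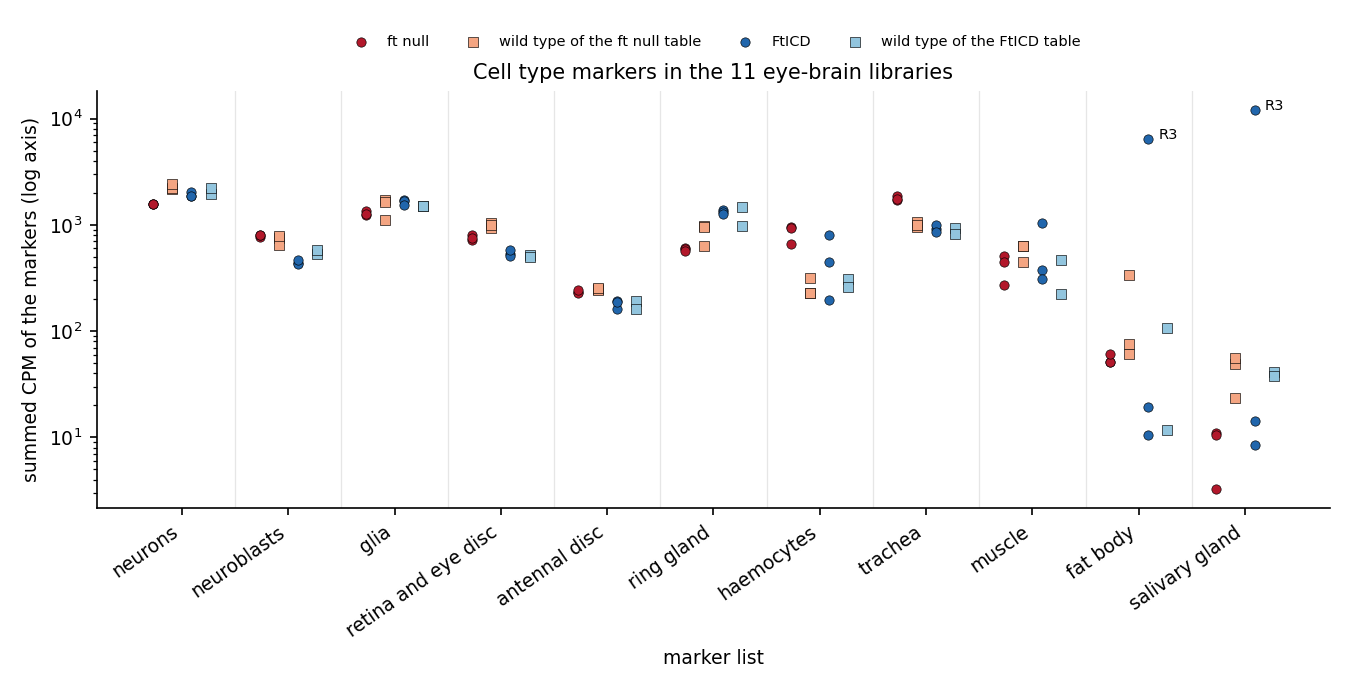
Summed CPM of marker genes of 11 cell types or tissues (log axis) in each eye-brain library. Points are libraries, from left to right ft null, its wild type, FtICD and its wild type. FtICD replicate 3 (R3) lies above all other libraries for fat body (6466 CPM) and salivary gland (11940 CPM), and ft null libraries lie below their wild type for neurons and retina and above it for haemocytes and trachea.

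More genes were called for loss than for gain, and most genes called in both moved the same way. With edgeR's quasi-likelihood test and an adjusted p below 0.05 as the call, 44.3% of the 9978 genes tested for loss were called (2348 or 23.5% higher, 2076 or 20.8% lower in ft null complexes). For gain 4.41% of 10841 genes were called (355 or 3.27% higher, 123 or 1.13% lower in FtICD complexes), and DESeq2 called 1837. The gain estimates have the wider errors, so these counts do not compare how many genes changed. The difference, loss minus gain, was called for 17% of 10916 genes (900 or 8.24% higher, 951 or 8.71% lower). A called difference did not require opposite effects. Of the 892 genes with a higher difference that were tested in all 3 fits, 693 were called for loss alone, 32 for gain alone and 137 for neither. Of the 918 with a lower difference, 484 were called for loss alone, 152 for gain alone and 172 for neither.

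Among the 9871 genes tested for both loss and gain, 187 were called in the same direction and 54 in opposite directions, which is 1.89% and 0.547% of these genes. The 129 genes higher in both (1.31%) made up 2.94% of the loss calls and 28.6% of the gain calls. The 58 genes lower in both (0.588%) made up 1.32% and 12.9%. Of opposite calls, 14 genes (0.142%) were higher with loss and lower with gain, which is 0.319% of the loss calls and 3.1% of the gain calls. The other 40 (0.405%) were lower with loss and higher with gain, 0.911% and 8.87%. The counts of genes called in both rest on the small FtICD table. Without FtICD replicate 1, or without either wild-type library of that table, opposite calls numbered 2, 16 and 1, and same-direction calls 29, 60 and 9.

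**Figure D2:**
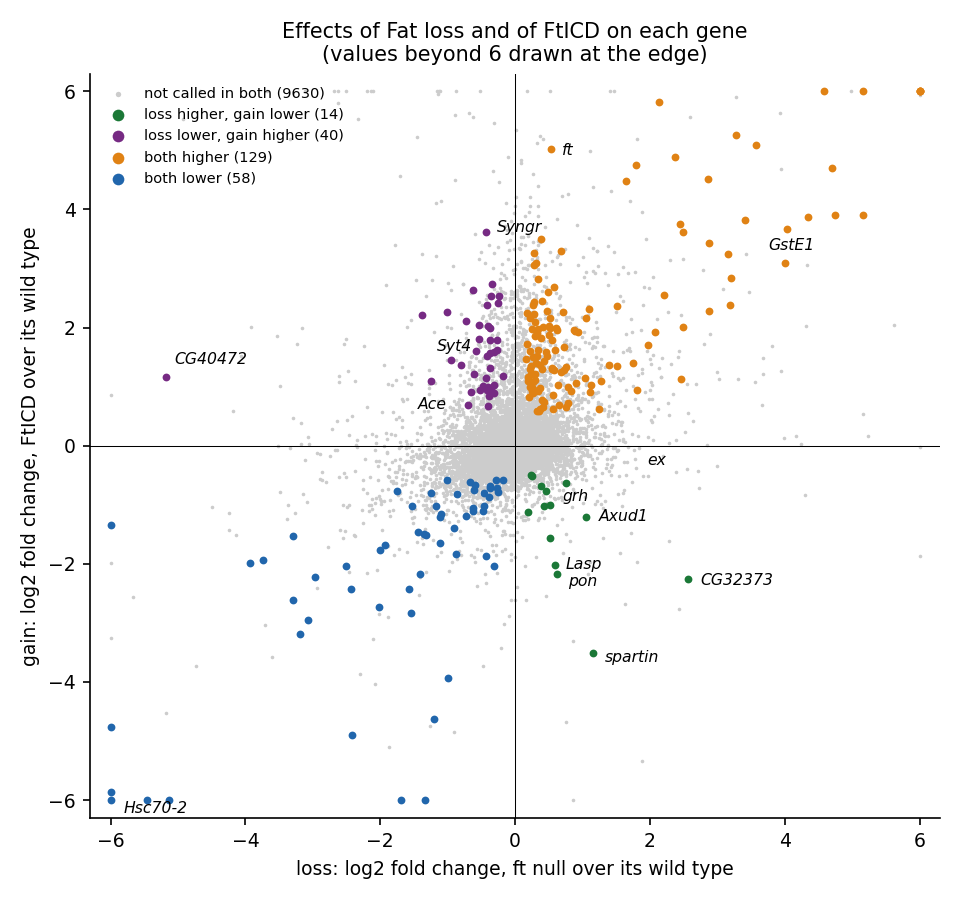
Log2 fold change with loss (ft null over its wild type, horizontal) against log2 fold change with gain (FtICD over its wild type, vertical) for the 9871 genes tested in both. Each point is a gene, coloured where it was called in both comparisons. The 14 green genes are higher with loss and lower with gain, the 40 purple genes the reverse, and the 129 orange and 58 blue genes moved the same way.

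The first check was ft itself (FBgn0001075, chromosome 2L, 4198404 to 4221796 on dm6). It had 161, 154 and 175 CPM in ft null libraries, against 113, 103 and 117 CPM in their wild type. In FtICD libraries it had 4758, 4783 and 5496 CPM, against 151 and 163 CPM in their wild type. The groups did not overlap in either table, as in 56.9% of all genes tested for loss and 46.5% of those tested for gain. ft RNA was higher in both comparisons, by 0.54 ± 0.07 (log2, SE; adjusted p = 0.00073) with loss and by 5.02 ± 0.17 (adjusted p = 0.00051) with gain. Counts on ft do not separate transgene from endogenous RNA and say nothing of the protein made from the mutant alleles.

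Several genes of Fat and Hippo signalling, among them feedback targets of Yorkie, were called higher in ft null complexes. Of these, ex, kibra and fj lay below wild type in FtICD complexes without passing the test. expanded (ex, chromosome 2L, 431227 to 448701) encodes an upstream activator of Hippo and is a classical Yorkie target. It had 559, 595 and 614 CPM in ft null libraries, against 179, 146 and 185 CPM in their wild type. FtICD libraries had 77.7, 84.0 and 93.2 CPM, against 99.5 and 102 CPM in their wild type. All ft null values were above, and all FtICD values below, the wild type of the same table, with effects of 1.77 ± 0.09 for loss (adjusted p = 1.5e-05) and −0.22 ± 0.11 for gain (adjusted p = 0.29). The difference was 2.04 ± 0.15 (adjusted p = 5.8e-05). Exons of ex overlap those of crq, and the library kit as named keeps no strand.

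The gene of the partner of Expanded, kibra, showed the same order. It had 92.6, 85.1 and 89.4 CPM in ft null libraries, against 33.3, 33.3 and 33.9 CPM in their wild type, and 29.7, 34 and 24.6 CPM in FtICD libraries, against 37.1 and 43.6 CPM in theirs. Again the ft null libraries were above and the FtICD libraries below their wild type. The loss effect was 1.39 ± 0.06 (adjusted p = 7.8e-06), the gain estimate was −0.43 ± 0.17 (adjusted p = 0.22), and the difference was 1.86 ± 0.17 (adjusted p = 0.00014). The ligand gene ds (exons shared with lncRNA:CR44988) had 262, 250 and 282 CPM in ft null libraries, against 171, 183 and 192 CPM in their wild type. In FtICD libraries ds had 52.4, 54.7 and 63.4 CPM, against 70.0 and 63.0 CPM in their wild type, so that these 2 groups overlapped. Its difference was 0.76 ± 0.14 (adjusted p = 0.0046).

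The kinase gene fj, a Yorkie target that modifies both cadherins, had 213, 216 and 199 CPM in ft null libraries, against 140, 121 and 141 CPM in their wild type. It had 86.9, 82.5 and 75.2 CPM in FtICD libraries, against 115 and 110 CPM in theirs. Neither pair of groups overlapped, and the difference was 1.11 ± 0.13 (adjusted p = 0.00046). The gain estimate of fj, −0.44 ± 0.10, had an adjusted p of 0.079 in 3 FtICD libraries and of 0.045 (−0.38 ± 0.08) without replicate 3. Differences of d, the gene of Dachs (1.29 ± 0.16, adjusted p = 0.00075), of wts, the gene of Warts (0.88 ± 0.15, adjusted p = 0.0031), and of the apical determinant crb (1.22 ± 0.14, adjusted p = 0.00042) had the same sign. The regulators Merlin (Mer), Magi (exons shared with mago) and Pez also had a positive difference. The exception was Schip1, whose product acts with Expanded upstream of Hippo. It had 21.0, 24.5 and 21.6 CPM in ft null libraries, against 55.5, 44.2 and 55.7 CPM in their wild type, and its FtICD values overlapped their wild type.

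By list, 7 of 12 Fat and Dachsous genes were called higher and 1 lower with loss (median log2 fold change 0.37), against 1 higher, ft, and 0 lower with gain (median −0.12, with 4 of 12 estimates above 0). For the difference 4 were called higher and 1 lower (median 0.26). Of 21 tested Yorkie growth and survival targets, 11 were called higher and 1 lower with loss (median 0.29). Of the 23 tested for gain, 0 were called (median −0.18, with 7 estimates above 0), and 9 were called higher and 1 lower for the difference (median 0.55). Of 26 genes of the Hippo kinase cassette and its regulators, 13 were called higher and 4 lower with loss (median 0.19), and 1 and 1 with gain (median −0.07, with 10 estimates above 0). Over all genes tested the medians were 0.00 for loss, 0.01 for gain and −0.02 for the difference. Called for loss were 66.7% of the Fat and Dachsous, 57.1% of the Yorkie and 65.4% of the Hippo list. Over all genes this share was 44.3%. For gain the shares were 8.33, 0 and 7.69% in the same order, against 4.41% of all genes. For the difference they were 41.7, 43.5 and 46.15%, against 17% of all genes. The lists share members, ex, kibra and crb standing in both the Yorkie and the Hippo list.

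Other genes of the pathway did not follow this order. The gene of the coactivator itself, yki, had 62.1, 62.5 and 62.6 CPM in ft null libraries, against 48.0, 51.6 and 46.9 CPM in their wild type. It had 76.7, 26.7 and 74.1 CPM in FtICD libraries, against 8.68 and 4.80 CPM in theirs, giving a difference of −2.78 ± 0.57 (adjusted p = 0.012). The wild type of the FtICD table was thus far below the wild type of the ft null table, while FtICD replicates 1 and 3 were above all ft null values. Cka, a scaffold of the STRIPAK phosphatase complex that counters Hippo (exons shared with CG7367), had 358, 351 and 426 CPM in FtICD libraries, against 131 and 118 CPM in their wild type, and overlapped between ft null and its wild type. Scalloped (sd), the DNA-binding partner of Yorkie, was called lower in both comparisons, with effects of −0.19 ± 0.06 for loss and −0.57 ± 0.10 for gain.

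**Figure D3:**
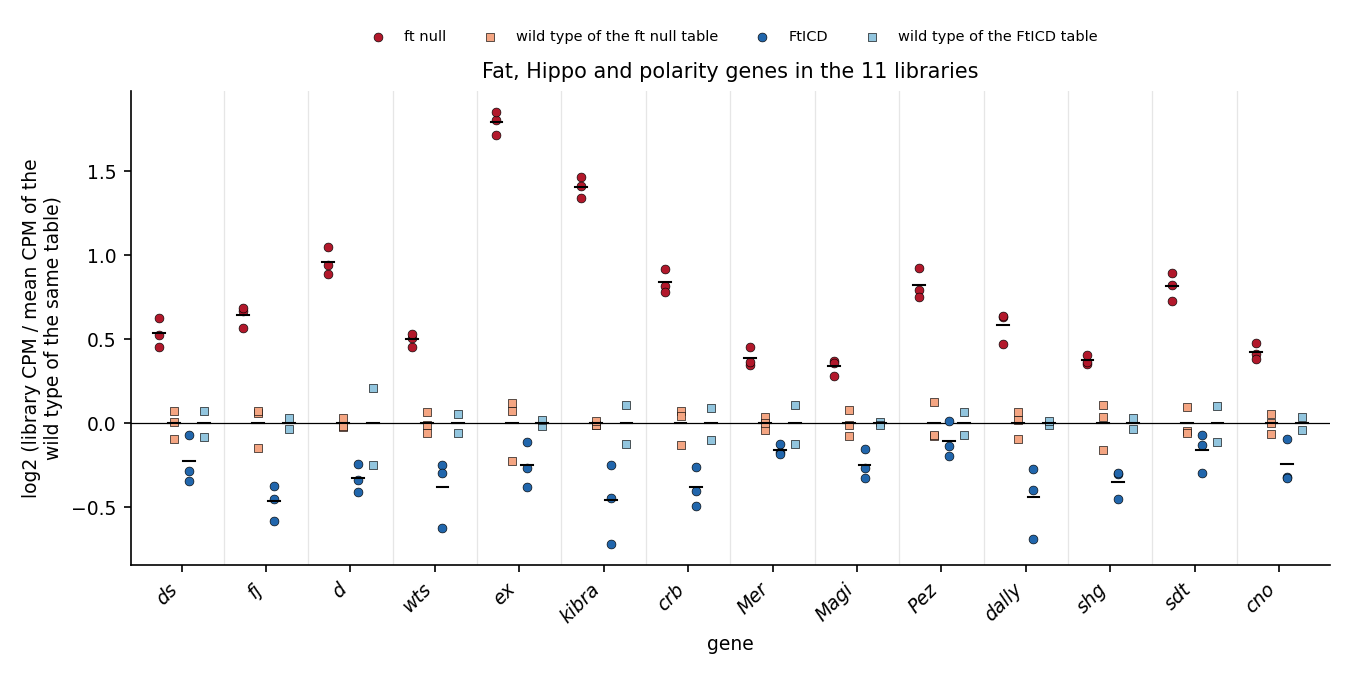
Log2 of each library's CPM over the mean CPM of the wild type of the same table for 14 Fat, Hippo and polarity genes. Red points are ft null libraries, blue points FtICD libraries, squares their wild type, and black bars the log2 of the group mean. For all 14 genes, each shown for its called positive difference, the ft null libraries lie above their wild type, and the FtICD means lie below 0 although 0 of these genes were called for gain.

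Polarity and junction genes were called for loss at a share near that of all genes, 50% of the apicobasal and 46.7% of the planar list against 44.3% of all genes tested. For gain the shares were 4.545 and 0% in the same order, against 4.41% of all genes. For the difference they were 36.4 and 40%, against 17% of all genes. Of 22 apicobasal polarity and junction genes, 9 were called higher and 2 lower with loss (median 0.09). With gain 1 was called higher, the beta-catenin gene arm (exons shared with mRpL16), and 0 lower (median −0.25), and 7 were higher and 1 lower for the difference (median 0.51). Stardust (sdt), which binds Crumbs, had 351, 312 and 333 CPM in ft null libraries, against 182, 201 and 181 CPM in their wild type, and its FtICD values of 110, 115 and 98.4 CPM overlapped 112 and 129 CPM in theirs. The E-cadherin gene shg had a difference of 0.72 ± 0.13 (adjusted p = 0.0041) and canoe (cno), which links junctions to actin, of 0.67 ± 0.12 (adjusted p = 0.0044, exons shared with dpr16). Of 15 planar cell polarity genes, 5 were called higher and 2 lower with loss (median 0.07), 0 with gain (median −0.18), and 6 higher and 0 lower for the difference (median 0.37). These 6 included the polarity effectors in and frtz (exons shared with mRpL48) and the kinase gene Rok (with asRNA:CR45001).

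In the basement membrane list, 11 of 15 genes were called higher and 1 lower with loss (median 0.38) and 0 with gain (median 0.03, or −0.13 without FtICD replicate 3, with 9 of 15 gain estimates above 0). The share called for loss was 80%, against 44.3% of all genes. For gain it was 0%, against 4.41% of all genes. The laminin alpha gene wb had 135, 134 and 136 CPM in ft null libraries, against 74.5, 76.4 and 79.9 CPM in their wild type. It had 26.6, 29.7 and 28.6 CPM in FtICD libraries, against 38.2 and 49.7 CPM in theirs. The groups were apart in both tables and the difference was 1.45 ± 0.14 (adjusted p = 0.00018). The integrin alpha genes if and mew each had a difference of 0.71 (SE 0.11 for if, 0.10 for mew, whose exons overlap CG15742). Haemocyte markers, whose cells also secrete basement membrane, moved with loss. They summed to 656 to 956 CPM in ft null libraries, against 228 to 319 CPM in their wild type, with 8 of 8 markers called higher, and to 196 to 804 CPM in FtICD libraries, against 260 and 308 CPM in theirs, with 0 called. In the wider haemocyte list 15 of 20 tested genes were called higher and 4 lower with loss, or 95% against 44.3% of all genes. Tracheal markers summed to 1719 to 1854 CPM in ft null libraries, against 954 to 1060 CPM in their wild type. Of the 4 tracheal markers, 3 were called higher with loss and 0 lower. The marker btl was not called, with means of 2.79 CPM in ft null libraries and 3.37 CPM in their wild type. The part of haemocytes and trachea in the basement membrane list was not tested.

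Genes called higher with loss and lower with gain included regulators of neural progenitors. Axud1 (chromosome 2L, 2365345 to 2370137) encodes a nuclear protein of the CSRNP family. It had 161, 176 and 167 CPM in ft null libraries, against 85.1, 75.0 and 79.9 CPM in their wild type. In FtICD libraries it had 120, 119 and 118 CPM, against 228 and 329 CPM in theirs. The effect was 1.05 ± 0.06 for loss (adjusted p = 2.6e-05) and −1.20 ± 0.17 for gain (adjusted p = 0.023), and the difference was 2.30 ± 0.18 (adjusted p = 5.8e-05).

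The transcription factor gene grh (grainy head), expressed in neuroblasts and epithelia, had 288, 289 and 293 CPM in ft null libraries, against 201, 189 and 207 CPM in their wild type. It had 94.2, 103 and 88.8 CPM in FtICD libraries, against 198 and 192 CPM in theirs. Both wild types had similar CPM here, and the 2 genotypes lay on either side of them. The effects were 0.52 ± 0.05 for loss (adjusted p = 0.00023) and −1.01 ± 0.10 for gain (adjusted p = 0.012), and exons of grh overlap asRNA:CR45270. pon, which anchors the fate determinant Numb in dividing neuroblasts, had 111, 124 and 119 CPM in ft null libraries, against 86.2, 67.4 and 72.5 CPM in their wild type, and 14.7, 17.0 and 8.20 CPM in FtICD libraries, against 65.9 and 55.8 CPM in theirs. Its gain effect of −2.17 ± 0.32 exceeded its loss effect of 0.63 ± 0.09 in size, and the difference was 2.84 ± 0.33 (adjusted p = 0.00064).

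Lasp, an actin-binding protein gene, behaved like pon. It had 170, 183 and 186 CPM in ft null libraries, against 128, 106 and 120 CPM in their wild type, and 21.0, 23.5 and 15.7 CPM in FtICD libraries, against 87.9 and 77.2 CPM in theirs, with a difference of 2.65 ± 0.20 (adjusted p = 5.8e-05, exons shared with CG43954). The other genes of this class included the potassium channel gene Irk1 (exons shared with cnc and CG46310), the chloride channel gene Best2, the nonsense-mediated decay kinase gene nonC, the kinase gene KP78b (with KP78a), the cytochrome P450 gene Cyp9c1, and spartin. Over the 14 genes the loss effects ran from 0.20 to 2.56 (median 0.52) and the gain effects from −3.52 to −0.50 (median −1.08). At 2.56 for loss and −2.25 for gain, CG32373 had the largest effect of loss.

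**Figure D4:**
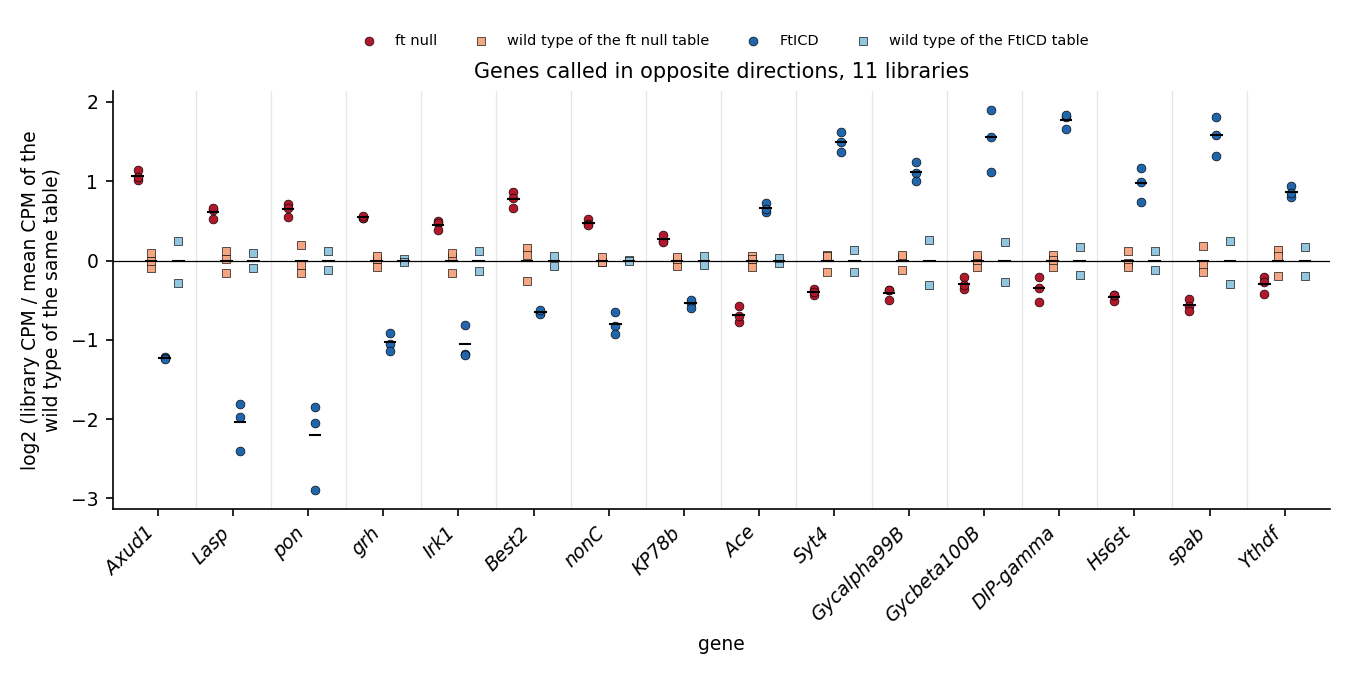
Log2 of each library's CPM over the mean CPM of the wild type of the same table, for 8 genes called higher with loss and lower with gain (left) and 8 called lower with loss and higher with gain (right). Red points are ft null libraries, blue points FtICD libraries, squares their wild type, and black bars the log2 of the group mean. In every one of the 16 genes, which were chosen for their opposite calls, the red and blue libraries lie on opposite sides of the wild-type libraries.

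The neuroblast list as a whole had mixed calls with loss (5 higher, 6 lower of 32, median −0.01) and 1 higher and 3 lower with gain (median −0.16). For the difference 6 were called higher and 0 lower (median 0.26). The shares called were 34.4% for loss, 12.5% for gain and 18.75% for the difference, against 44.3, 4.41 and 17% of all genes. klu, a zinc finger gene of neuroblast identity, showed a lower level with gain alone: 86.2, 77.9 and 86.1 CPM in FtICD libraries, against 128 and 142 CPM in their wild type. Its ft null values overlapped their wild type. The 6 neuroblast markers summed to 770 to 800 CPM in ft null libraries, against 649 to 786 CPM in their wild type, and to 427 to 462 CPM in FtICD libraries, against 532 and 575 CPM in theirs. Of them 1, grh, was called higher with loss and 2, grh and klu, were called lower with gain. The other markers did not follow these sums. Without grh and klu, left out after their values were seen, the 4 others (dpn, ase, wor and mira) summed to 402 to 437 CPM in ft null libraries, against 386 to 489 CPM in their wild type, and to 245 to 287 CPM in FtICD libraries, against 206 and 241 CPM in theirs. The highest FtICD sum, in replicate 3, rests on mira. That gene had 3.79, 2.59 and 90.9 CPM in FtICD libraries, against 1.97 and 2.73 CPM in their wild type. In the ft null table mira had 258, 255 and 252 CPM in ft null libraries, against 271, 238 and 277 CPM in their wild type. For mira the whole FtICD table, its wild type included, thus lay below the ft null table, with replicate 3 the nearest to it.

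Genes called lower with loss and higher with gain included several of the synapse and of neuronal signalling. Ace (chromosome 3R, 13222951 to 13259517), the acetylcholinesterase that ends cholinergic transmission, had 175, 200 and 184 CPM in ft null libraries, against 312, 282 and 302 CPM in their wild type. It had 158, 171 and 163 CPM in FtICD libraries, against 101 and 106 CPM in theirs. The effects were equal in size and opposite, −0.70 ± 0.07 for loss (adjusted p = 0.00016) and 0.69 ± 0.09 for gain (adjusted p = 0.023). The 2 genotypes ended at similar CPM, and it was the wild types of the 2 tables that differed.

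Syt4, a synaptotagmin of vesicle release, had 190, 200 and 195 CPM in ft null libraries, against 270, 232 and 268 CPM in their wild type, and 219, 202 and 240 CPM in FtICD libraries, against 85.2 and 70.5 CPM in theirs. The synaptic vesicle protein gene Syngr had 63.8, 67.7 and 68.3 CPM in ft null libraries, against 92.9, 72.3 and 99.4 CPM in their wild type, and 66.6, 64.4 and 61.3 CPM in FtICD libraries, against 5.19 and 5.39 CPM in theirs. For both genes the low group was the wild type of the FtICD table. The differences were −1.90 ± 0.15 for Syt4 (adjusted p = 8.5e-05) and −4.0 ± 0.17 for Syngr (adjusted p = 1.9e-06).

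Both subunits of a soluble guanylyl cyclase, Gycalpha99B and Gycbeta100B (exons shared with stops), the receptor of nitric oxide, stood in this class, chosen for mention after their values were seen. Gycalpha99B had 58.1, 58.3 and 53.3 CPM in ft null libraries, against 77.4, 69.4 and 79.2 CPM in their wild type, and 96.1, 89.3 and 106 CPM in FtICD libraries, against 53.3 and 35.9 CPM in theirs. Here the wild types of the 2 tables were closer and the FtICD libraries were above all others. Also chosen after their values were seen were the synaptic recognition gene DIP-gamma (exons shared with CG11828), the axon guidance adaptor gene dock, the synaptic growth regulator nwk, and the splicing genes SmB, SmD1 and RnpS1 (with CG9386). The rule for named genes also gave the neuropeptide gene spab and the glycosyltransferase gene Ugt58Fa. Over the 40 genes the loss effects ran from −5.18 to −0.18 (median −0.42) and the gain effects from 0.67 to 3.62 (median 1.55).

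The 2 wild types, which are the references of these calls, also differed from each other. The wild type of the FtICD table was more than 2-fold below the wild type of the ft null table for 13.6% of the 10841 genes tested for gain, but for 55.5% of the 355 genes called higher in FtICD and for 65.0% of the 40 genes lower with loss and higher with gain. Over those 40 genes the median log2 ratio to the wild type of the ft null table was −0.01 for FtICD libraries and −1.66 for the wild type of the FtICD table. Among the 14 genes higher with loss and lower with gain, 2 had such a gap (14.3%). Choosing genes called higher with gain favours a low wild type of the FtICD table. Choosing genes called lower with loss favours a high wild type of the ft null table, so some such gap comes with the choice itself. For the 14 genes the choice favours the opposite gap. The part of this gap in the calls was not tested, and ratios across tables also carry the sequencer. When tests were limited to genes whose mean levels in the 2 tables differed by less than 4-fold, 48 genes were lower with loss and higher with gain and 19 the reverse. This limit used the mean of genotype and wild type in each table. Genes with a gap between the wild types could pass it, so it does not test that gap.

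As functions, neuronal and photoreceptor lists had more members called lower than higher with loss. Their shares called for loss were 70% of the synaptic, 53.7% of the neurotransmitter, 57.9% of the neuropeptide and 60% of the photoreceptor genes tested, against 44.3% of all genes. For gain the shares were 6.67, 12.2, 2.63 and 3.23% in the same order, against 4.41% of all genes. For the difference they were 23.3, 24.4, 12.8 and 19.35%, against 17% of all genes. Of 30 synaptic vesicle and release genes, 19 were called lower and 2 higher with loss (median −0.41). With gain 2 were called higher, Syt4 and Syngr, and 0 lower (median 0.05, or −0.03 without FtICD replicate 3). For the difference 6 were called lower and 1 higher (median −0.45). The synaptobrevin gene nSyb had 257, 273 and 261 CPM in ft null libraries, against 376, 320 and 415 CPM in their wild type, and 278, 289 and 255 CPM in FtICD libraries, against 207 and 161 CPM in theirs. The 2 effects were opposite in sign, −0.51 ± 0.09 (adjusted p = 0.0026) and 0.60 ± 0.14 (adjusted p = 0.084), and the difference was −1.06 ± 0.18 (adjusted p = 0.0033).

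Of 41 genes of neurotransmitter synthesis, transport and reception, 21 were called lower and 1 higher with loss (median −0.34), 3 higher and 2 lower with gain (median 0.13), and 9 lower and 1 higher for the difference (median −0.43). Besides Ace, the acetylcholine synthesis gene ChAT was called higher with gain, at 53.8, 48.6 and 53.3 CPM in FtICD libraries, against 21.6 and 21.2 CPM in their wild type (exons shared with VAChT), and its ft null values overlapped their wild type. The receptor subunit gene nAChRbeta2 had 49.0, 48.7 and 49.2 CPM in ft null libraries, against 69.4, 91.5 and 67.3 CPM in their wild type, with a gain estimate of 0.32 ± 0.11 (adjusted p = 0.16) and a difference of −0.94 ± 0.17 (adjusted p = 0.0049). Of 38 tested neuropeptide and receptor genes, 19 were called lower and 3 higher with loss (median −0.44), 1 lower and 0 higher with gain (median −0.05, or 0.06 without FtICD replicate 3), and 5 lower of 39 for the difference. The share of neuropeptide and receptor genes called for the difference was below that of all genes.

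Insulin-like peptide genes of the brain were among those 5. Ilp2 had 3.0, 2.65 and 3.08 CPM in ft null libraries, against 7.41, 4.28 and 5.12 CPM in their wild type, and 12.4, 12.4 and 11.6 CPM in FtICD libraries, against 8.17 and 4.55 CPM in theirs. The libraries were apart in opposite directions, with effects of −0.96 ± 0.24 (adjusted p = 0.013) and 0.95 ± 0.28 (adjusted p = 0.13) and a difference of −1.87 ± 0.38 (adjusted p = 0.0083). Ilp3 and Ilp5 had differences of −1.07 ± 0.19 and −1.43 ± 0.36, and their FtICD values overlapped their wild type.

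Of 30 tested photoreceptor differentiation genes, 17 were called lower and 1 higher with loss (median −0.37). Of 31 tested for gain, 1 was called higher, the repressor gene ttk, and 0 lower (median −0.19), and for the difference 6 were lower and 0 higher (median −0.53). The share of photoreceptor genes called for the difference was near that of all genes. The retinal transcription factor gene gl (glass) had 25.1, 31.7 and 29.2 CPM in ft null libraries, against 88.7, 86.4 and 83.9 CPM in their wild type. It had 51.5, 48.4 and 56.6 CPM in FtICD libraries, against 40.6 and 20.5 CPM in theirs. The loss effect was −1.61 ± 0.08 (adjusted p = 1.7e-05), the gain estimate was 0.80 ± 0.30 (adjusted p = 0.21), and the difference was −2.36 ± 0.31 (adjusted p = 0.0011). The receptor kinase gene sev, needed for the photoreceptor R7 and sharing exons with asRNA:CR44358, had a difference of −1.44 ± 0.25 (adjusted p = 0.0041). The founder gene ato (−0.86 ± 0.25), sens (−1.26 ± 0.37) and ro (−1.20 ± 0.23) were lower with loss, and their FtICD libraries overlapped their wild type. The eye field gene Optix ran the other way: it had 124, 117 and 106 CPM in ft null libraries, against 61.9, 55.7 and 61.9 CPM in their wild type, with a difference of 1.01 ± 0.17 (adjusted p = 0.0033).

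Cell type markers include genes already given above with these lists, such as nSyb, gl, sev, ato, sens and ro. Their sums are therefore not separate evidence. The 8 neuron markers summed to 1568 to 1574 CPM in ft null libraries, against 2161 to 2429 CPM in their wild type, with 8 of 8 called lower. They summed to 1861 to 2032 CPM in FtICD libraries, against 1935 and 2235 CPM in their wild type, with 0 called. The 12 retina and eye disc markers summed to 714 to 795 CPM in ft null libraries, against 935 to 1049 CPM in their wild type (10 lower, 1 higher), and to 504 to 575 CPM in FtICD libraries, against 522 and 499 CPM in theirs (0 called). Over all genes tested, 44.3% were called for loss and 4.41% for gain. None of these markers was at 0 in all 11 libraries. In bulk RNA, fewer cells of a type and less RNA per cell cannot be told apart.

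**Figure D5:**
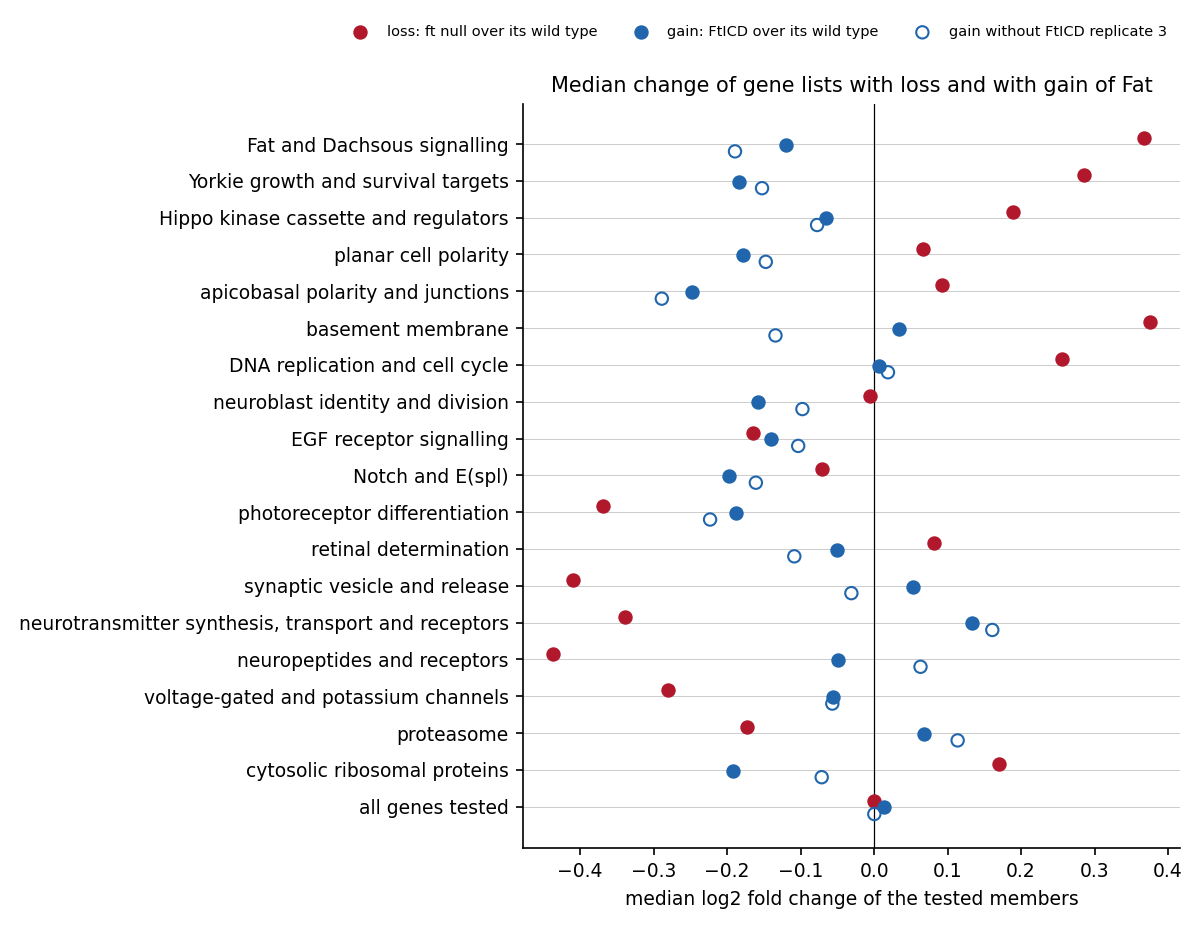
Median log2 fold change of the tested members of 18 gene lists and of all genes tested, for loss (red), gain (blue) and gain without FtICD replicate 3 (open circles). Fat, Yorkie, Hippo and polarity lists lie right of 0 for loss and left of 0 for gain, and synaptic, neurotransmitter, neuropeptide and photoreceptor lists lie furthest left for loss (−0.34 to −0.44).

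Signalling genes upstream of photoreceptor fate had calls in both directions with loss. Of 24 EGF receptor pathway genes, 10 were called lower and 5 higher with loss and 0 with gain. The protease gene ru (roughoid), which releases EGF ligands, had 17.3, 18.6 and 19.5 CPM in ft null libraries, against 70.5, 64.6 and 65.7 CPM in their wild type. It had 56.8, 54.6 and 49.6 CPM in FtICD libraries, against 73.8 and 69.9 CPM in theirs, so both genotypes were below wild type, with a difference of −1.43 ± 0.12 (adjusted p = 9.8e-05). Egfr itself was higher with loss (380, 396 and 392 CPM, against 240, 220 and 231 CPM in wild type) and overlapped with gain. Of 28 tested Notch and E(spl) genes, 7 were called higher and 10 lower with loss, and 0 with gain. The shares called for loss were 62.5% of the EGF receptor and 60.7% of the Notch list, against 44.3% of all genes. For gain both shares were 0%, against 4.41% of all genes. Notch (N) had 863, 841 and 920 CPM in ft null libraries, against 607, 594 and 639 CPM in their wild type, and 467, 548 and 339 CPM in FtICD libraries, against 643 and 806 CPM in theirs. Its groups were apart on opposite sides, with a gain estimate of −0.66 ± 0.23 (adjusted p = 0.17) and a difference of 1.20 ± 0.23 (adjusted p = 0.0065).

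Of 55 DNA replication and cell cycle genes, 27 were called higher and 4 lower with loss (median 0.26), against 1 higher and 1 lower with gain, where the median of 0.01 changed sign with the scaling. For the difference 9 were higher and 2 lower (5 and 1 without FtICD replicate 3). The shares called were 56.4% for loss, 3.64% for gain and 20% for the difference, against 44.3, 4.41 and 17% of all genes. The replication helicase gene Mcm7 (exons shared with asRNA:CR45871) had 177, 193 and 175 CPM in ft null libraries, against 147, 121 and 148 CPM in their wild type, and 143, 139 and 139 CPM in FtICD libraries, against 174 and 160 CPM in theirs. tum, a cytokinesis gene, had a difference of 0.64 ± 0.13 (adjusted p = 0.01). Rbf, the retinoblastoma homologue that restrains S phase, was among those called lower (−0.62 ± 0.15, adjusted p = 0.02).

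Several genes that moved the same way with loss and gain were close to absent in one group. CG32581 had 55.5, 60.9 and 59.3 CPM in ft null libraries, against 0, 0.111 and 0 CPM in their wild type, and 86.6, 88.8 and 76.8 CPM in FtICD libraries, against 0.034 and 0.035 CPM in theirs. That is a ratio of 1480 (95% exact interval 411 to 12300, counting error only) with loss and of 2450 (679 to 20300) with gain. The serpin gene Spn42De had 0 counts in both wild types and was at least 64.3-fold higher in ft null and at least 107-fold higher in FtICD complexes, taking 3 counts over the wild-type libraries as the floor. The cytochrome P450 gene Cyp6a17 had a ratio of 1160 (322 to 9610) with loss and of 178 (60.9 to 867) with gain.

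Single detoxification and defence genes were higher in both, although their lists went both ways. Of 47 tested cytochrome P450 genes 15 were called higher and 6 lower with loss, and of 56 tested for gain 4 were higher and 5 lower. Of 28 tested glutathione transferase genes 9 were called higher and 4 lower with loss, and of 29 tested for gain 3 were higher and 3 lower. Of antimicrobial and immune genes 8 of 19 were called higher and 3 lower with loss and 0 of 23 with gain. For loss the shares called were 44.7% of P450, 46.4% of glutathione transferase and 57.9% of immune genes, against 44.3% of all genes. For gain they were 16.1, 20.7 and 0%, against 4.41% of all genes. The glutathione transferase gene GstE1 had 67.3, 67.3 and 63.6 CPM in ft null libraries, against 4.96, 3.56 and 3.61 CPM in their wild type. It had 70.0, 72.2 and 65.7 CPM in FtICD libraries, against 9.08 and 7.43 CPM in theirs. Both genotypes reached the same level, with effects of 4.01 ± 0.12 and 3.09 ± 0.14. Cyp6t3 rose by 4.70 ± 0.25 in both comparisons (exons shared with CG8858), and its difference was 0.06 ± 0.41 (adjusted p = 0.94). Further genes higher in both, named after their values were seen, were the serine protease gene ea (4.34 and 3.88), the lysosomal thiol reductase gene GILT3 (3.41 and 3.83), the recognition protein gene GNBP2 (2.08 and 1.93), the trehalase gene Treh (1.04 and 1.14, exons shared with Rbpn-5) and the actin regulator coro (1.10 and 0.90).

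Among the 58 genes lower in both, CG18853 had 0 counts in ft null complexes, at least 2110-fold lower than in their wild type, and 3 counts in FtICD complexes, with a ratio of wild type over FtICD of 4390 (1500 to 21300). The heat shock cognate gene Hsc70-2 had 0.176, 0.048 and 0.187 CPM in ft null libraries, against 45.7, 81.9 and 47.6 CPM in their wild type, and 0.684, 0.976 and 0.421 CPM in FtICD libraries, against 43.3 and 39.9 CPM in theirs. It lies with CG31157, CG11656 and CG7966, all lower in both, within 41559 bases of chromosome 3R (13009895 to 13051453), where Hsc70-2 and CG31157 are 342 bases apart. The gene ry (xanthine dehydrogenase) lies inside that stretch and was higher with loss, at 113, 94.8 and 136 CPM in ft null libraries, against 35.9, 66.1 and 33.9 CPM in their wild type, and below wild type with gain (6.45, 5.55 and 9.63 CPM, against 13.7 and 16.8 CPM). Named after their values were seen, neuronal genes lower in both included the neuropeptide gene amn (−1.92 and −1.68, exons shared with Hers), the acetylcholine receptor gene nAChRalpha6 (−1.12 and −1.20) and the serotonin receptor gene 5-HT1A (−0.48 and −1.11), and the homeobox gene hth (with asRNA:CR44018) was lower too (−0.46 and −0.80). Both genotypes were set against w1118, and both are other stocks than w1118. An effect of Fat and an effect of the stocks' background therefore cannot be told apart for any gene called here, whichever way it moved. The gene w had 204, 213 and 170 CPM in FtICD libraries, against 8.47 and 2.52 CPM in their wild type (5.18 ± 0.66, adjusted p = 0.033). In the ft null table it had at most 1.17 CPM and was not tested.

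Several of the largest differences came from 1 of the 2 arms. Culd, a transmembrane protein gene with CUB and LDLa repeats, had 215, 136 and 159 CPM in ft null libraries, against 7.47, 11.3 and 7.78 CPM in their wild type, and its FtICD values of 5.26, 9.58 and 6.61 CPM overlapped 8.07 and 6.27 CPM in theirs. Its difference was 4.27 ± 0.40 (adjusted p = 0.00023). The cuticle protein gene Cpr66D likewise rose with loss by 3.0 ± 0.09 and had a difference of 3.39 ± 0.17 (adjusted p = 5.2e-06). Osbp, an oxysterol-binding protein gene, differed through gain, with 9.21, 8.32 and 7.55 CPM in FtICD libraries, against 55.3 and 49.1 CPM in their wild type, and overlapped with loss (difference 2.82 ± 0.14, adjusted p = 4.5e-06, exons shared with CG11771). Sr-CI, a haemocyte scavenger receptor gene, was higher with loss (2.38 ± 0.15) and overlapped with gain.

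At the low end, the fatty acid synthase gene FASN3 had 2.47, 2.32 and 4.15 CPM in ft null libraries, against 34.2, 35.9 and 29.5 CPM in their wild type, and FtICD libraries overlapped their wild type. The respiratory genes UQCR-C2 and ND-18, the metalloprotease gene Tace and l(1)G0004 (exons shared with Syx16) had a low difference with the larger estimate for gain. UQCR-C2 had 211, 33.6 and 243 CPM in FtICD libraries, against 7.22 and 4.80 CPM in their wild type, while ft null libraries had 267, 252 and 242 CPM, against 236, 235 and 238 CPM in theirs. Its difference was −4.65 ± 0.95 (adjusted p = 0.014), the gain estimate alone did not pass (adjusted p = 0.12), and again the wild type of the FtICD table lay far below the other 3 groups. The neuropeptide gene Tk (−3.80 ± 0.72) showed the same order of groups. Sdic3, with 0 counts in FtICD libraries (at least 251-fold lower), belongs to a family of near-identical copies, so its counts are uncertain.

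Without FtICD replicate 3 the gain calls numbered 847 (7.89% of 10729 genes, with 544 or 5.07% higher and 303 or 2.82% lower) and the difference calls 2449 (22.6% of 10817, with 1042 or 9.63% higher and 1407 or 13% lower). Of the 1851 difference calls made with all 11 libraries, 1702 were called again with the same sign and 0 with the other sign. Opposite calls rose to 125 (1.27% of 9836 genes tested in both, with 45 or 0.458% higher with loss and 80 or 0.813% lower with loss) and same-direction calls to 317 (3.22%, with 193 or 1.96% higher in both and 124 or 1.26% lower in both). Of the 54 opposite genes, all 14 higher with loss and 38 of the 40 lower with loss were again called in both comparisons in these directions. SmB and Sidpn were the 2 that were not, with adjusted p of 0.078 and 0.052 for gain. By function, for the difference 9 Yorkie targets were called higher and 1 lower, 8 polarity and junction genes higher and 1 lower, 13 synaptic genes lower and 0 higher, 14 neurotransmitter genes lower and 1 higher, and 9 photoreceptor genes lower and 2 higher. In this order the shares called were 43.5, 40.9, 43.3, 36.6 and 35.5%, against 22.6% of all genes. The salivary glue list turned: its median for gain was 6.34 with all libraries and −2.60 without replicate 3, and its median for loss was −2.62.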

How the data were processed

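RNA of 11 eye-brain libraries was used. Per the labels' protocols, cDNA of 10 ng RNA per library came from the SMARTer Ultra Low kit, which as named keeps no strand, and was read as pairs of 150 bases. The deposited values were estimated counts of each gene before any scaling to depth. Tools named in the submitters' processing notes are Salmon 1.80, edgeR, Trimmomatic 0.33 and FastQC 0.10, with the build dm6. Their settings are not given in the sources used here. Of the nonzero values 27.7% were not whole (tolerance 1e-06), and all were rounded to whole counts. The Ensembl annotation of BDGP6.54 placed 17083 of the 17208 genes, and exon overlaps of at least 50 bases are named.

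Tests used edgeR 4.0.16 in R 4.3.3 (TMM, filterByExpr with a minimum count of 10, quasi-likelihood F test, two-sided, Benjamini-Hochberg adjustment over all genes tested, threshold 0.05). Fits were made for loss and gain on the libraries of each table alone, and loss minus gain as an interaction contrast with 1 mean per group. The procedure was tested on simulated data in which all genes of a comparison had the same biological coefficient of variation. Log2 changes of 1 were called in 100% of changed genes for loss, 11% for gain and 10% for the difference. For log2 changes of 2 the shares were 100, 80 and 78%. Real genes differ in their variation, so these shares need not hold for each gene. CPM values use TMM-scaled library sizes and were not divided by gene length, so levels are compared between libraries and not between genes. Errors of log2 fold changes are SE. Ratios of genes with 1 to 3 counts carry 95% exact intervals, and bounds use a floor of 3 counts over the group. Intervals and bounds cover counting error only.

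The labels give separate libraries per group and do not say whether these came from separate animals, so p-values measure the spread between libraries, which may be technical. No 2 libraries of a group held the same values within sampling noise. Same-numbered libraries did not deviate together, and no replicate block was used.

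The members, gene lists and tests were chosen with earlier results of these data known. Of the listed gene names, 30 were not matched. The rule for named genes took up to 12 genes per opposite pattern and 8 per shared direction with the largest smaller effect, the 10 highest and 10 lowest differences at 5 CPM or more with separate libraries, and up to 4 list members with the smallest adjusted p of the difference. Other genes named were chosen after their values were seen. Alternatives were RLE scaling, DESeq2 1.42.0, no filter, a minimum count of 50, a replicate block, limma 3.58.1 with a weight per table, genes near in level between tables, leaving out ribosomal RNA genes, and leaving out each library.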

Additional observations from a re-analysis of the deposited data

How the results depend on the processing

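The loss count and the difference count without FtICD replicate 3 stayed within 1.5 times under every alternative run, and the difference count with all libraries did so except in 2 cases below. DESeq2 called more genes for gain, 1837 against 478 with edgeR, and accordingly 241 opposite and 699 same-direction genes against 54 and 187. Leaving out each library in turn gave 3134 to 5097 calls for loss, 20 to 847 for gain, 1148 to 2449 for the difference (1226 without ft null replicate 2 and 1148 without ft null replicate 3) and 1708 to 2607 for the difference without FtICD replicate 3. Opposite calls ranged from 1 to 125 and same-direction calls from 9 to 317. For gain the counts were 51 without FtICD replicate 1, 847 without FtICD replicate 3, and 139 and 20 without wild-type replicates 1 and 2 of its table, each lone wild-type library then being assumed to vary like the FtICD libraries. Fewer samples enter these fits. The causes of the other shifts were not tested.

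Replicate numbers did not pair the libraries: same-numbered libraries correlated at −0.08, −0.16 and −0.06 in the ft null table and at −0.02 and 0.22 in the FtICD table. With a replicate block the counts were 3345 for loss, 1211 for gain, 1943 for the difference, 127 opposite and 423 same-direction. In the FtICD table the block of replicate 3 held FtICD replicate 3 alone, as that wild type has 2 libraries. For gain and the difference the block fit thus also set that library aside.

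No called estimate of a named gene changed sign under any alternative. Among estimates not called, 61 of named genes had the other sign under an alternative that did not call them either, such as Egfr and Sr-CI for gain. The difference of Hsc70-4 was −3.49 (adjusted p = 0.30) with all libraries, 0.61 without FtICD replicate 3 and 0.64 with a replicate block, where it was called. Of 3422 values of named genes under alternatives other than leaving out a library, 67 lost and 48 gained their call, and of 3492 values with a library left out, 464 lost and 21 gained it. Depth limits what can be said of genes at 0 to 3 counts in a group, for which bounds or intervals are given.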

Other observations

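Among genes called with loss, most of those of protein synthesis were higher and most of those of the proteasome lower. The shares called for loss were 54.5% of ribosomal protein, 69% of translation and 55.9% of proteasome genes, against 44.3% of all genes tested. For gain they were 3.41, 4.55 and 0% in the same order, against 4.41% of all genes. For the difference they were 10.2, 29.55 and 11.1%, against 17% of all genes. Of 88 tested cytosolic ribosomal protein genes, 41 were called higher and 7 lower in ft null complexes (median log2 fold change 0.17). In FtICD complexes 3 were called higher and 0 lower (median −0.19), and 3 were higher and 6 lower for the difference (median 0.36). RpL18 was called higher in both, at 383, 348 and 340 CPM in ft null libraries, against 290, 285 and 275 CPM in their wild type, and at 996, 793 and 918 CPM in FtICD libraries, against 148 and 66.7 CPM in theirs. Of 42 tested translation initiation and elongation genes, 22 were called higher and 7 lower with loss (median 0.17), and of 44 tested for gain 2 were higher and 0 lower (median 0.02). Of 34 tested proteasome genes, 18 were called lower and 1 higher with loss (median −0.17), and 0 of 36 with gain (median 0.07). Without FtICD replicate 3, 15 proteasome genes were called lower and 1 higher for the difference, against 3 and 1 with all libraries. Without that replicate the share was 44.4%, against 22.6% of all genes.

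Of 18 glycolysis genes tested for gain, 2 were called, both higher (median 0.47), and of 17 tested for loss 3 were called, all higher. The shares called were 11.1% for gain and 17.65% for loss, against 4.41 and 44.3% of all genes. The glycolytic enzyme gene Gapdh1 had 653, 599 and 628 CPM in FtICD libraries, against 216 and 97.5 CPM in their wild type, while its ft null values of 621, 586 and 602 CPM overlapped 684, 479 and 620 CPM in theirs. Tpi had 784, 694 and 788 CPM in FtICD libraries, against 308 and 156 CPM in their wild type, and its loss estimate of 0.18 ± 0.08 had an adjusted p of 0.096. These were the 2 genes called for gain. For both genes the wild type of the FtICD table was the lowest of the 4 groups.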
